A study of Mus musculus with 6 samples.

Results

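The LIN28, TRIM71 and let-7 target axis was described here through 10 genes: Lin28a, Lin28b, Trim71, Hmga1, Hmga2, Igf2bp1, Igf2bp2, Igf2bp3, Dis3l2 and Mycn. They were taken by symbol from the 57170 gene identifiers of the table, and all 10 were among the 17707 genes with enough counts to test. The members were chosen by their role in the axis with their CPM in sKO and WT testes in view. Their own differences between the genotypes are therefore described. An edgeR call printed for a member only sorts it and is not read as a test. Bulk RNA sequencing of polyadenylated RNA was done on testes of mice at postnatal day 5. The sKO group holds 4 libraries, sKO-1 to sKO-4, from mice with a conditional loss of Mdm2 in germ cells that have not entered meiosis. The WT group holds 2 libraries, WT-1 and WT-2, from wild-type mice. The sources used here name no Cre driver, floxed allele or strain. Whether the libraries came from different animals is not stated, so each p-value reflects variation among libraries that may be technical.

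LIN28A and LIN28B are RNA-binding proteins of embryonic and germline stem cells that block the maturation of the let-7 family of microRNAs. They bind the loop of the let-7 precursor, and the tail of uridines that follows marks the precursor for the exonuclease DIS3L2. Mature let-7 in turn represses the messages of Lin28a, Lin28b, Trim71, Hmga2 and the Igf2bp genes, so the axis is a mutual inhibition. TRIM71, whose worm counterpart LIN-41 was among the first let-7 targets found, represses messages in stem cells. In the mouse testis, LIN28A is known as a protein of undifferentiated spermatogonia, the mitotic germ cells that include the stem cells.

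The sequences through which this circuit works are shown first, since they set which members are candidate let-7 targets. The RefSeq (GRCm38.p6) sequences used here hold 13 mature let-7 family loci with 11 distinct sequences. Mirlet7a-2 is not among them, so counts of loci and hairpins leave it out. Of these loci, 12 share 1 seed, bases 2 to 8 of the microRNA, and let-7j has another. The seed is in capitals.
let-7a-5p (chr13:48538239-48538260, minus strand): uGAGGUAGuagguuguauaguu
let-7b-5p (chr15:85707325-85707346, plus strand): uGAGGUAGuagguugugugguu
let-7g-5p (chr9:106178846-106178867, plus strand): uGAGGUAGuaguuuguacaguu
let-7i-5p (chr10:122985698-122985719, minus strand): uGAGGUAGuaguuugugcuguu
miR-98-5p (chrX:151913229-151913250, plus strand): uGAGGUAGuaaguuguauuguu
let-7j (chr3:140028281-140028304, plus strand): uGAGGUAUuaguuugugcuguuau
The forms differ mainly outside the capitals, so a message that pairs with the seed can pair with nearly all of them.

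LIN28 proteins read the loop between the arms of the precursor, where they recognise the letters GGAG. The loops of 3 hairpins are given, with GGAG in capitals, to show precursors with and without it.
Mirlet7g loop: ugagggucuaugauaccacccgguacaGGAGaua
Mirlet7a-1 loop: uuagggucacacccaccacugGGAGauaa
Mirlet7b loop: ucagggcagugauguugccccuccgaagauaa
GGAG was present in the loop of 8 of 11 let-7 family hairpins with both arms listed (72.7%), against 44 of 633 other mouse hairpins (6.95%). The let-7 loops were also longer, with a median of 32 bases against 16 bases. The absence of these letters in the Mirlet7b loop says nothing about binding.

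A match to the let-7 seed was sought as CTACCTCA, which pairs with bases 2 to 8 and is followed by A, on the sense strand of the 3′ UTR of the longest protein-coding transcript (GENCODE M21, GRCm38). It was present in 7 of the 10 members, against 517 of 14289 tested protein-coding genes (3.62%). Since several members are in the axis because they are known let-7 targets, this share is not independent of the choice. Trim71 had 4 matches, Igf2bp1 had 3, Lin28a had 2, and Lin28b, Hmga2, Igf2bp2 and Igf2bp3 had 1 each. Hmga1, Dis3l2 and Mycn had 0 matches of 8 bases, and with the 7 letters CTACCTC Hmga1 had 1. The 7-base match also raised Lin28b to 4, Hmga2 to 4 and Igf2bp1 to 4. One site of each member with a match is shown with the bases before it, the match in capitals.
Lin28a (chr4:134005189-134005196, minus strand): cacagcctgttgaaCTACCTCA
Lin28b (chr10:45381022-45381029, minus strand): cccgggcgggaagtCTACCTCA
Trim71 (chr9:114512472-114512479, minus strand): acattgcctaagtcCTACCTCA
Hmga2 (chr10:120364224-120364231, minus strand): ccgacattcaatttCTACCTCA
Igf2bp1 (chr11:95961778-95961785, minus strand): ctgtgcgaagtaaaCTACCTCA
Igf2bp2 (chr16:22059473-22059480, minus strand): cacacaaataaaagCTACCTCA
Igf2bp3 (chr6:49086787-49086794, minus strand): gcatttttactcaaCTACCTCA
The coordinates are those of the match. Members with a match included genes that were lower in every sKO library, such as Trim71, and genes whose groups overlapped, such as Igf2bp3.

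The libraries held 17990837 to 18394437 expected counts each. Mdm2, the targeted gene, was at 37.6, 47.3, 41.8 and 45.1 CPM in sKO-1 to sKO-4, against 67.2 and 75.95 CPM in WT-1 and WT-2, where CPM express counts relative to a TMM-scaled library total. Its log2 fold change was −0.74 (SE 0.11, edgeR adjusted p = 0.0241), and reads from exons outside a deletion would still count. Cells other than the targeted germ cells also count in whole testes, so these values do not give the extent of the deletion. The first principal component (38.1% of the variance) placed sKO-1 and sKO-2 with WT-1, and sKO-3 and sKO-4 with WT-2, and no label names a batch. Differences within these library subsets are therefore given beside the pooled ones. Sertoli markers were all detected, as were germ cell markers. Of 15 germ cell markers, 13 were lower in sKO and 0 higher by the edgeR call, against 2.3% and 0.124% of all genes tested. Their median log2 fold change was −2.31 against 0.03 over all genes tested. The marker lists were chosen with earlier results of these data known. Their summed level was 113.6 to 187.6 CPM in sKO libraries and 612.5 and 884.7 CPM in WT libraries, and none was at 0 in any library. In whole testes, fewer cells of a type and less RNA per cell cannot be told apart.

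Of the 10 members, 5 were lower in sKO testes by the edgeR call (Benjamini-Hochberg adjusted p under 0.05 over all genes tested) and 0 were higher. Over all genes tested, 408 were called lower (2.3%) and 22 higher (0.124%), and since these values chose the members, nothing is read from the difference. The 5 were Lin28a, Lin28b, Trim71, Hmga1 and Igf2bp1, at 3.33-fold to 5.01-fold below WT, and in each all 4 sKO values lay below both WT values. Such separation was found for 2348 genes tested (13.3%). The other 5 members, Hmga2, Igf2bp2, Igf2bp3, Dis3l2 and Mycn, had log2 fold changes between −0.05 and 0.39, and the median of all 10 was −0.89. All 5 calls ended without WT-1, when 1 gene in the whole table was called lower, and Igf2bp1 was not called without sKO-2.

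**Figure D1:**
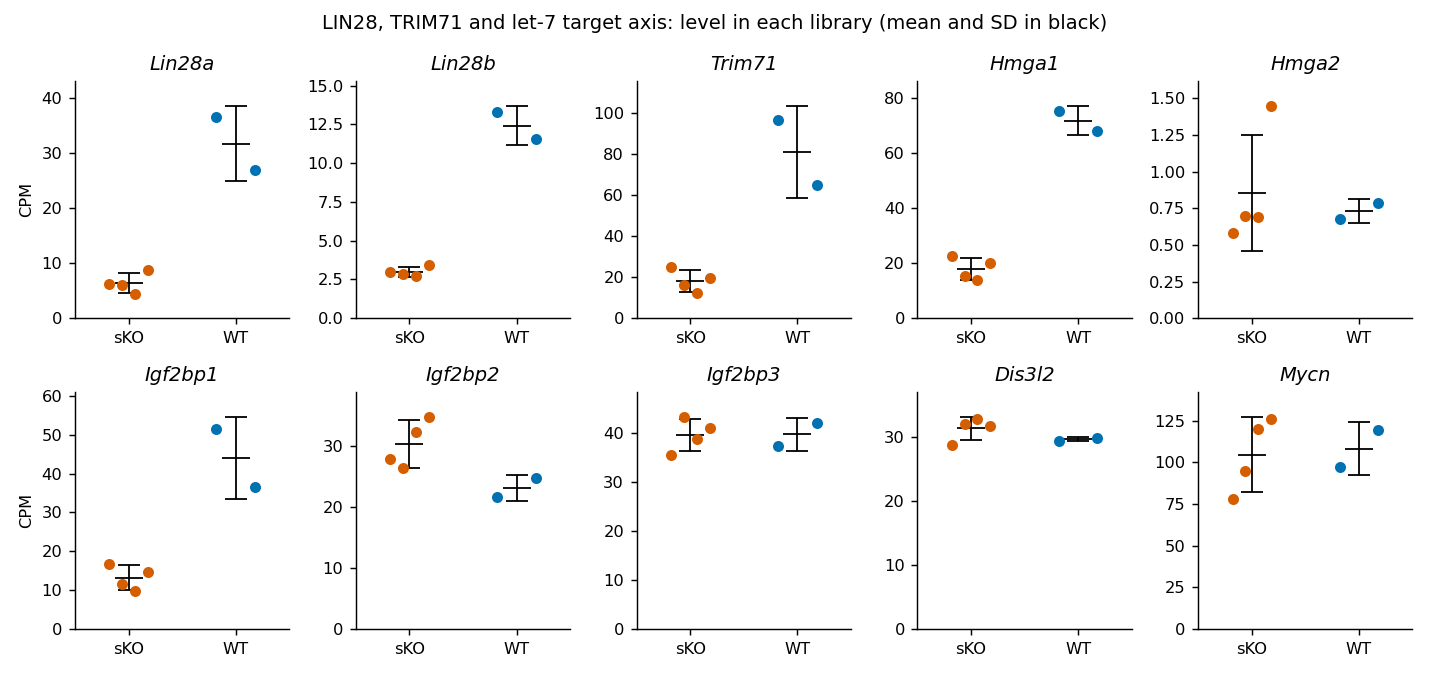
Level of each of the 10 members in CPM (vertical axis, linear, from 0) in the 4 sKO libraries (orange) and the 2 WT libraries (blue), with the group mean and SD in black. Lin28a, Lin28b, Trim71, Hmga1 and Igf2bp1 lie lower in every sKO library than in both WT libraries, and Igf2bp2 lies higher in every sKO library.

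Lin28a, the form known from undifferentiated spermatogonia, was at 6.25, 5.998, 4.33 and 8.78 CPM in sKO-1 to sKO-4, against 36.55 and 27.0 CPM in WT-1 and WT-2. The highest sKO library was below the lower WT library. The means were 6.34 ± 1.84 CPM in sKO (SD, n = 4) and 31.8 ± 6.76 CPM in WT (SD, n = 2), or −2.32 as a log2 fold change (SE 0.26). The difference was −2.56 within the first library subset and −2.11 within the second.

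Lin28b, the paralog that likewise blocks let-7 maturation, was at 2.96, 2.84, 2.71 and 3.41 CPM in sKO-1 to sKO-4, against 13.3 and 11.55 CPM in WT-1 and WT-2. The 4 sKO values lay close together and well below WT. The means were 2.98 ± 0.303 CPM in sKO (SD, n = 4) and 12.4 ± 1.23 CPM in WT (SD, n = 2), or −2.06 as a log2 fold change (SE 0.19). Within the library subsets the difference was −2.15 and −1.89. Per kilobase of exon, Lin28b made up 17.7 ± 2.92% of the summed level of both Lin28 genes in sKO (SD, n = 4) and 14.8 ± 1.46% in WT (SD, n = 2). These shares overlapped, at 14.6% to 21.65% in sKO and 13.8% and 15.9% in WT.

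Dis3l2, the exonuclease that degrades uridylated let-7 precursors, was at 28.8, 32.1, 32.8 and 31.8 CPM in sKO-1 to sKO-4, against 29.4 and 29.9 CPM in WT-1 and WT-2. The groups overlapped, with sKO-1 below both WT libraries and the other 3 above. The log2 fold change was 0.08 (SE 0.11). Its sign turned, to −0.08, when library sizes were set to the Sertoli markers, a scaling that moved the median of all genes to −0.13.

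Trim71, the RNA-binding ubiquitin ligase, was at 24.9, 16.2, 12.4 and 19.8 CPM in sKO-1 to sKO-4, against 96.8 and 65.1 CPM in WT-1 and WT-2. No sKO library came near a WT library, although WT-1 and WT-2 also stood apart from each other. The means were 18.4 ± 5.33 CPM in sKO (SD, n = 4) and 80.95 ± 22.4 CPM in WT (SD, n = 2), or −2.14 as a log2 fold change (SE 0.26). Within the library subsets the difference was −2.26 and −2.05.

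Hmga1 and Hmga2 encode architectural chromatin proteins that bind AT-rich DNA. Hmga1 was at 22.5, 15.2, 14.04 and 20.05 CPM in sKO-1 to sKO-4, against 75.3 and 67.95 CPM in WT-1 and WT-2. The groups were far apart, with means of 17.9 ± 4.01 CPM in sKO (SD, n = 4) and 71.6 ± 5.19 CPM in WT (SD, n = 2). The log2 fold change was −1.997 (SE 0.19), and the difference was −2.02 and −2.01 within the library subsets. A near copy, Hmga1b, was at a mean of 0.207 CPM, and reads that fit both copies are uncertain.

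Hmga2 was scarcely detected, at 0.582, 0.696, 0.693 and 1.44 CPM in sKO-1 to sKO-4, against 0.675 and 0.789 CPM in WT-1 and WT-2. The groups overlapped, and sKO-4 alone stood above the rest. The log2 fold change was 0.22 (SE 0.49), and −0.17 without sKO-4. These levels rest on 11.01 to 25.2 counts per library, so a moderate difference was not detectable at this depth. An antisense gene, 1700006J14Rik at a mean of 0.451 CPM, shares 140 exon bases with Hmga2 in the GRCm38 annotation, and whether the counting used strand is not stated.

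The IGF2BP proteins bind messages, Igf2 among them, and set their stability and translation. Igf2bp1 was at 16.8, 11.6, 9.65 and 14.7 CPM in sKO-1 to sKO-4, against 51.45 and 36.5 CPM in WT-1 and WT-2. All sKO values lay below both WT values. The means were 13.2 ± 3.19 CPM in sKO (SD, n = 4) and 43.98 ± 10.6 CPM in WT (SD, n = 2), or −1.74 as a log2 fold change (SE 0.23). It was −1.87 and −1.61 within the library subsets.

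Igf2bp2, the family member with the widest adult expression, was at 27.9, 26.4, 32.35 and 34.8 CPM in sKO-1 to sKO-4, against 21.7 and 24.7 CPM in WT-1 and WT-2. It was the only member with all 4 sKO values above both WT values, as were 1733 of all genes tested (9.79%), and nothing is read from that count. The means were 30.4 ± 3.88 CPM in sKO (SD, n = 4) and 23.2 ± 2.14 CPM in WT (SD, n = 2), or 0.39 as a log2 fold change (SE 0.15), which the edgeR test did not call. It was called higher with the library subset as a term, a fit that called 8.65% of all genes lower and 4.97% higher.

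Igf2bp3 was at 35.5, 43.2, 38.8 and 40.9 CPM in sKO-1 to sKO-4, against 37.3 and 42.1 CPM in WT-1 and WT-2. The groups overlapped fully, with means of 39.6 ± 3.28 CPM in sKO (SD, n = 4) and 39.7 ± 3.40 CPM in WT (SD, n = 2). Igf2bp3 shares 1529 exon bases with Malsu1 on the opposite strand, itself at a mean of 29.1 CPM, so some reads may belong to either gene.

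Since only 1 of the 3 genes was lower, the make-up of the family differed between the genotypes. Per kilobase of exon, Igf2bp1 held 17.6%, 11.9%, 9.85% and 13.5% of the summed IGF2BP level in sKO-1 to sKO-4, against 41.5% and 30.7% in WT-1 and WT-2. Igf2bp1 was the smallest part in every sKO library, while in WT its rank depended on the library and the length used. It was the largest part in WT-1 by exon union, but below Igf2bp3 there by the longest transcript (6.14 against 8.58 CPM per kilobase), and Igf2bp3 was the largest part in WT-2 by either length. Igf2bp2 held 39.7 ± 3.52% in sKO (SD, n = 4) and 25.05 ± 3.08% in WT (SD, n = 2), without overlap. Igf2bp3 held 47.1 ± 3.89% in sKO (SD, n = 4) and 38.85 ± 4.51% in WT (SD, n = 2), also without overlap, although its CPM overlapped.

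**Figure D2:**
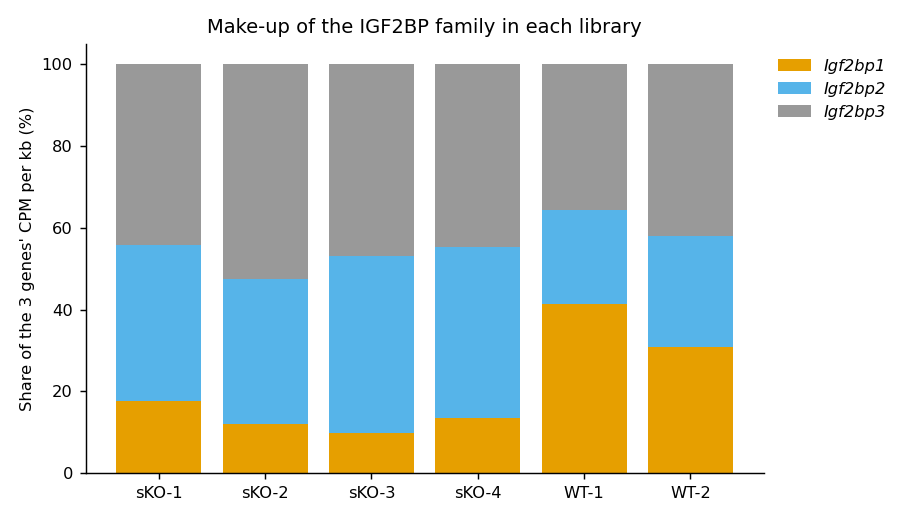
Share of each IGF2BP gene in the family's summed CPM per kilobase of exon (vertical axis, percent) in the 4 sKO libraries (left) and the 2 WT libraries (right). Igf2bp1 (bottom) takes 9.85% to 17.6% in sKO libraries and 30.7% and 41.5% in WT libraries.

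Mycn encodes a transcription factor of proliferating progenitor cells. It was at 77.9, 94.7, 120.1 and 126.1 CPM in sKO-1 to sKO-4, against 97.0 and 119.5 CPM in WT-1 and WT-2. The groups overlapped, and the values followed the library subsets rather than the genotype, with WT-1, sKO-1 and sKO-2 below the others. The log2 fold change was −0.05 (SE 0.20). Mycn held 0 seed matches of 8 bases. Hmga1 also held 0 but was lower in every sKO library, while Hmga2, Igf2bp2 and Igf2bp3 held 1 each and were not lower.

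**Figure D3:**
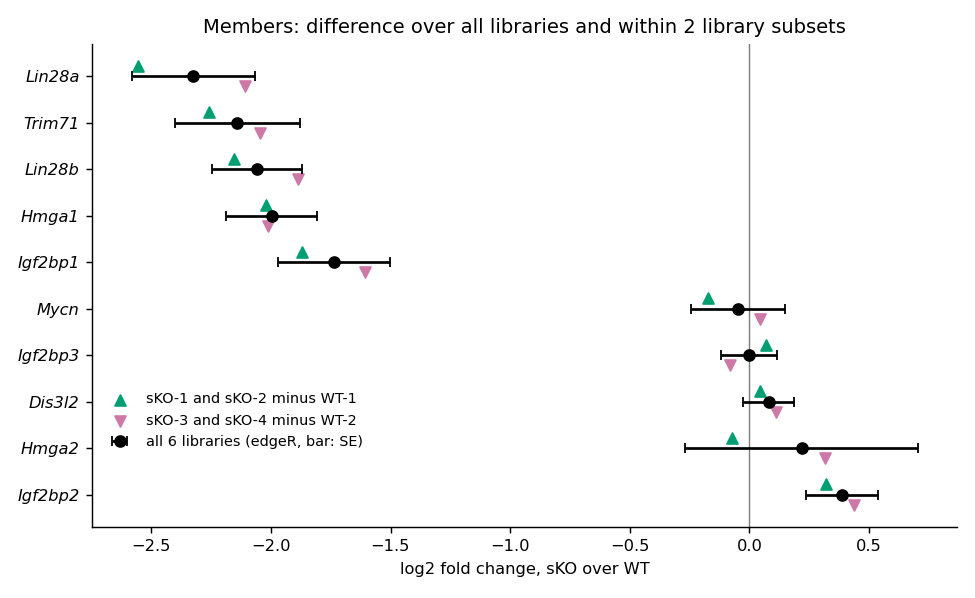
Log2 fold change of each member, sKO over WT (horizontal axis), from edgeR over all 6 libraries (black, bar: SE), with the difference of mean log2 CPM within each library subset (triangles). For Lin28a, Trim71, Lin28b, Hmga1 and Igf2bp1 both subsets lie below −1.6, and Mycn, Igf2bp3 and Hmga2 have subsets on both sides of 0.

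Levels of different genes were compared as mean CPM per kilobase of the union of exons. In WT testes Hmga1 was at 33.7 ± 2.44 and Mycn at 32.9 ± 4.82 (SD, n = 2 each), and these did not differ beyond their spread. Below them, Trim71 at 8.675 ± 2.40 and Lin28a at 7.95 ± 1.69 lay within each other's spread, as did Igf2bp3 at 4.86 ± 0.417 and Igf2bp1 at 4.54 ± 1.09. Dis3l2 at 3.33 ± 0.0379, Igf2bp2 at 3.14 ± 0.290, Lin28b at 1.37 ± 0.136 and Hmga2 at 0.108 ± 0.0119 followed.

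In sKO testes the order on the same scale differed. Mycn stood first at 31.8 ± 6.81, followed by Hmga1 at 8.44 ± 1.89, Igf2bp3 at 4.85 ± 0.402, Igf2bp2 at 4.10 ± 0.525 and Dis3l2 at 3.52 ± 0.199 (SD, n = 4 each). Trim71 at 1.97 ± 0.571, Lin28a at 1.59 ± 0.460 and Igf2bp1 at 1.36 ± 0.329 overlapped one another, and Lin28b at 0.329 ± 0.0334 and Hmga2 at 0.126 ± 0.0587 came last. With the length of the longest transcript, Igf2bp3 at 9.13 ± 0.782 stood level with Lin28a at 9.06 ± 1.93 in WT, so the order of genes with similar levels depends on which exons are counted.

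The lower members were set against the germ cell markers of the same library, as CPM per 1000 summed CPM of the 15 markers. Lin28a was then at 33.65, 47.0, 38.1 and 46.8 in sKO-1 to sKO-4, against 41.3 and 44.1 in WT-1 and WT-2, and the groups overlapped. Lin28b at 15.97 to 23.9 in sKO and 15.02 and 18.9 in WT, and Trim71 at 105.6 to 134.3 in sKO and 106.3 and 109.4 in WT, overlapped as well. Hmga1 also overlapped, at 106.9 to 123.5 in sKO and 85.1 and 110.9 in WT. On this scale the ratio of the sKO mean to the WT mean was 0.970 for Lin28a, 1.10 for Trim71, 1.185 for Lin28b and 1.20 for Hmga1.

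Igf2bp1 was the exception among the 5 lower members. It was at 90.7, 91.1, 84.9 and 78.2 per 1000 germ marker CPM in sKO-1 to sKO-4, against 58.2 and 59.6 in WT-1 and WT-2, so every sKO library was above both WT libraries. The mean was 1.46 times that of WT, a comparison with the summed level, in which abundant markers such as Dazl weigh most. Taken singly, Pnldc1, Dnd1 and Tdrd5 had smaller log2 fold changes than Igf2bp1, at −1.01, −1.70 and −1.72, and the other 12 markers had larger ones. The other 5 members, whose CPM differed little, were 4.74 to 6.37 times as high in sKO as in WT on this scale. The marker sum itself was 4.87 times as high in WT as in sKO, so a gene with equal CPM would come out at about that value. These ratios mostly carry the lower marker sum, and no rise of these members is read from them.

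With 10 markers of undifferentiated spermatogonia in place of the 15, the directions for Lin28b, Trim71 and Hmga1 turned. These markers summed to 32.75 to 67.96 CPM in sKO and 146.7 and 220.6 CPM in WT, and Nanos2 was at 0 in sKO-2. By the edgeR call 6 of 10 were lower and 0 higher, against 2.3% and 0.124% of all genes tested. The ratio of sKO to WT became 0.732 for Lin28a, 0.826 for Trim71, 0.899 for Lin28b, 0.902 for Hmga1 and 1.10 for Igf2bp1, whose groups then overlapped. Lin28a at 91.9 to 149.9 in sKO lay below its 165.7 and 183.9 in WT on this scale, and Trim71 at 338.3 to 379.2 in sKO lay below its 438.7 and 443.9 in WT. How far fewer germ cells account for the lower levels was not tested.

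**Figure D4:**
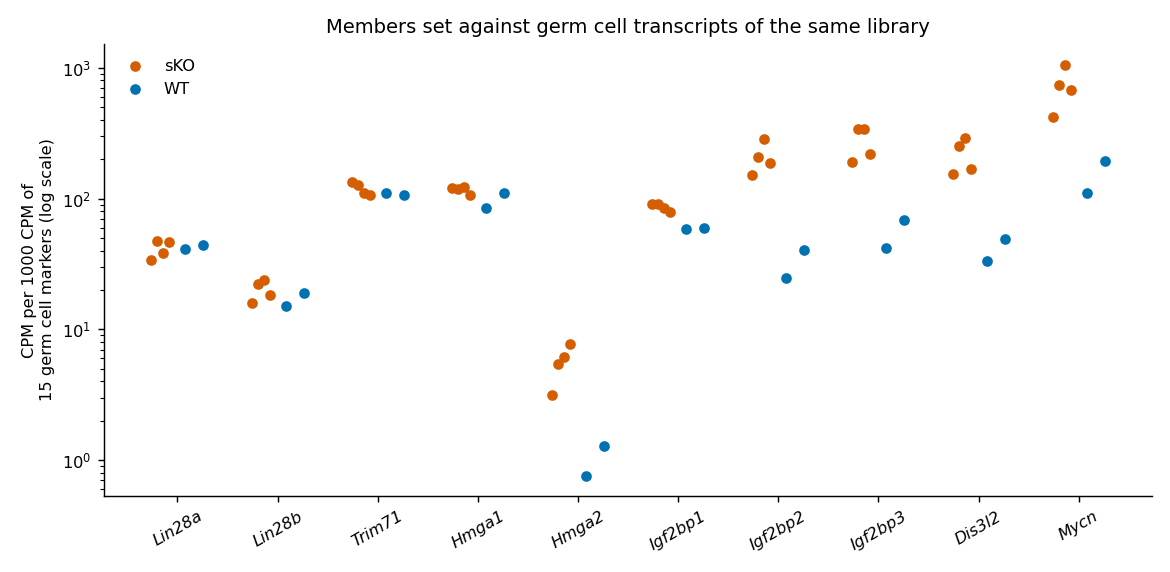
Level of each member as CPM per 1000 summed CPM of 15 germ cell markers in the same library (vertical axis, log scale), sKO (orange) left of WT (blue). Lin28a, Lin28b, Trim71 and Hmga1 overlap between the groups, Igf2bp1 is at 78.2 to 91.1 in sKO and 58.2 and 59.6 in WT, and the other 5 members lie higher in every sKO library. On this scale a gene with equal CPM in both groups also lies higher in sKO, since the marker sum is lower there.

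Few markers of somatic cells passed the test. Of 10 Sertoli markers 0 were lower and 1 was higher, and they summed to 3424 to 3714 CPM in sKO and 2984 and 3443 CPM in WT. The Leydig, endothelial, macrophage and erythroid lists had 0 calls. The 5 erythroid markers summed to 486.3 to 708.5 CPM in sKO and 401.0 and 401.3 CPM in WT, without overlap. Of them, 3 were higher in every sKO library than in both WT libraries, as were 9.79% of all genes tested. The median log2 fold change of the 5 erythroid markers was 0.49, and their part in the members' values was not tested. Of 5 peritubular myoid markers 1 was lower, Cnn1, a smooth muscle protein, and its list summed to 455.9 to 617.7 CPM in sKO and 574.8 and 750.9 CPM in WT.

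Around the members, 81 further genes of the axis were listed, of which 69 were tested. By the edgeR test 4 were lower (5.80%), against 2.3% of all genes, and 0 were higher. Their median log2 fold change was 0.06. The 4 were Drosha, Ccnd1, Arid3b and Prtg. With the library subset as a term, 15 were lower and 4 higher, in a fit that called 8.65% of all genes lower and 4.97% higher.

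Of 21 genes that process let-7 or act on it, 1 was lower and 0 higher, and the median log2 fold change was 0.02. Drosha, the nuclease that cuts primary microRNAs in the nucleus, was at 99.5, 106.8, 109.7 and 122.5 CPM in sKO-1 to sKO-4, against 163.3 and 151.9 CPM in WT-1 and WT-2. The groups did not overlap, and the log2 fold change was −0.52 (SE 0.10, edgeR adjusted p = 0.0422). The call ended on leaving out any 1 library (edgeR adjusted p from 0.0502 to 0.3545) and with RLE size factors (0.0532). The uridylyl transferases that tail let-7 precursors were near WT, with log2 fold changes of 0.03 for Tut4 and 0.18 for Tut7, named here after their values were seen.

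Of 29 further genes reported as let-7 targets, 3 were lower and 0 higher, against 2.3% and 0.124% of all genes tested. The median log2 fold change was −0.09. In 11 of the 29 all sKO values lay below both WT values, as in 13.3% of all genes tested. In 3 of the 29 all lay above, as in 9.79% of all genes tested. The list was chosen with earlier results of these data known, so no test is made of these counts. The 8-base match was present in 16 of the 29. Of the lower genes, Prtg held 1 such match, and Ccnd1 and Arid3b held 0. Ccnd1, the G1 cyclin D1, was at 15.6, 14.1, 17.04 and 21.8 CPM in sKO-1 to sKO-4, against 41.3 and 45.35 CPM in WT-1 and WT-2. The groups were well separated, and the log2 fold change was −1.34 (SE 0.17, edgeR adjusted p = 0.0152). The call ended without WT-1 (edgeR adjusted p = 0.147) or WT-2 (0.0628).

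Arid3b, a DNA-binding protein of the ARID family, was at 9.30 to 12.9 CPM in sKO, against 21.1 and 19.9 CPM in WT (log2 fold change −0.88, SE 0.16, edgeR adjusted p = 0.0370). Its call held without sKO-4 (0.0457) and ended on leaving out any other library (edgeR adjusted p from 0.0801 to 0.328). Prtg, an immunoglobulin-superfamily receptor of the embryo, was at 1.23 to 1.502 CPM in sKO, against 6.44 and 2.93 CPM in WT. The groups did not overlap, but the WT libraries lay far apart (log2 fold change −1.72, SE 0.34, edgeR adjusted p = 0.0493). Its call held without WT-2 (0.0352), ended on leaving out any other library (edgeR adjusted p from 0.113 to 0.501), and ended with RLE size factors (0.0510).

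Host transcripts of let-7 were called in neither direction. Of 16 listed, 4 could be tested, and of the 12 microRNA rows 10 were at 0 in all 6 libraries. A count of 0 allows up to 3 counts, or 0.163 to 0.167 CPM. Mature microRNAs carry no poly(A) tail, and oligo(dT) enrichment does not measure them, so the level of let-7 itself is not in these data. Huwe1, whose gene hosts Mirlet7f-2 and Mir98, differed by −0.21 (log2, SE 0.11, edgeR adjusted p = 0.514), and Wdr82, which hosts Mirlet7g, by 0.08 (SE 0.10, edgeR adjusted p = 0.837). Mir99ahg differed by 0.36 (SE 0.11, edgeR adjusted p = 0.186) and was called higher with the library subset as a term. It was named after its values were seen. All sKO values lay above both WT values for Mir99ahg and below both for Huwe1.

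The 7 paralogs of members had 0 calls, with Trim32 at a log2 fold change of 0.12 (edgeR adjusted p = 0.759) and Dis3 at −0.36 (0.405). The 8 genes of the IGF axis had 0 calls as well, with the imprinted transcript H19 at −0.09 (edgeR adjusted p = 0.911) and Igf1 at 0.27 (0.629). In 2 of the 8, Irs1 and Insr, all sKO values lay above both WT values, as in 9.79% of all genes tested, and in 0 all lay below. Irs1 was at 0.52 (SE 0.13, edgeR adjusted p = 0.121). It was called higher with DESeq2, with the library subset as a term, and with the number in the titles as a replicate block. Igf2, the message for which the IGF2BP proteins are named, was at 327.8 to 464.6 CPM in sKO and 302.7 and 407.4 CPM in WT, with overlapping groups. It was named after its values were seen.

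Of 4 messages reported as repressed by TRIM71, 0 were called, and their median log2 fold change was 0.23. In 3 of the 4, Plxnb2, Rbl2 and Cdkn1a, all sKO values lay above both WT values, as in 9.79% of all genes tested. Nothing is read from that count. Plxnb2, a semaphorin receptor, was at 227.6 to 234.8 CPM in sKO and 211.4 and 217.2 CPM in WT (log2 fold change 0.12, edgeR adjusted p = 0.602). Mbnl1, a splicing regulator, was at 196.1 to 253.2 CPM in sKO and 163.4 and 212.9 CPM in WT (0.18, edgeR adjusted p = 0.7145). Cdkn1a, the cell cycle inhibitor p21 and also a known p53 target, was at 4.97 to 6.19 CPM in sKO and 3.43 and 3.49 CPM in WT. The difference did not pass the test (log2 fold change 0.64, SE 0.22, edgeR adjusted p = 0.2395). Rbl2, a relative of the retinoblastoma protein, was at 66.1 to 77.55 CPM in sKO and 55.9 and 62.7 CPM in WT (0.27, edgeR adjusted p = 0.3375), and was called higher with the library subset as a term. Cdkn1a and Rbl2 were named after their values were seen.

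**Figure D5:**
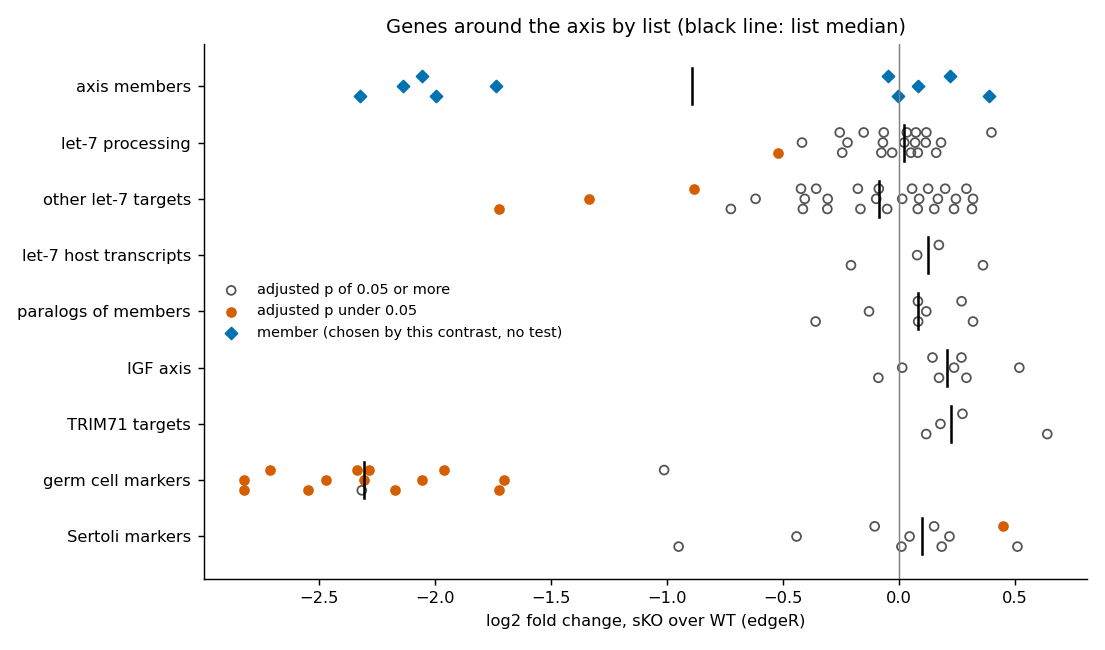
Log2 fold change, sKO over WT (horizontal axis), of the members (blue diamonds) and of the genes of 6 pathway lists and 2 marker lists, filled where the edgeR adjusted p was under 0.05. Black lines are list medians, which lie at −0.89 for the members, between −0.09 and 0.23 for the pathway lists and at −2.31 for the germ cell markers.

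The seed match was also counted among the genes called lower in sKO, with and without the members, which were chosen with this contrast in view. Of 358 genes called lower that have an annotated 3′ UTR, 13 held the 8-base match (3.63%), against 3.62% of all tested genes, and with the members left out 9 of 353 did (2.55%). The 3′ UTRs of the genes called lower were shorter, with a median of 801.5 bases, or 748 bases without the members, against 1144 bases over all tested genes. The shares were not corrected for this length. The match was present in 0 of 15 germ cell markers, whose median 3′ UTR was 357 bases. Lin28a, Lin28b, Trim71 and Igf2bp1, each with at least 1 match, were the members among those 13 genes.

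The genes whose pattern was most like that of a member were taken by the smallest distance between centred log2 CPM over the 6 libraries, among 13182 genes. Since the 6 values hold both genotypes, these genes share the difference itself. For Lin28a they were Sycp1 (distance 0.171), Smc1b (0.214), Fthl17c (0.246), Topaz1 (0.310) and Fbxo41 (0.312). Sycp1 encodes a protein of the synaptonemal complex and Smc1b a meiotic cohesin subunit. Other members came later in this order, with Lin28b at rank 53, Trim71 at 54, Hmga1 at 70 and Igf2bp1 at 118.

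For Lin28b the nearest genes were Rasd2, Scml2, Fkbp6, Ccdc88c and Psma8, at distances of 0.247 to 0.389, and Hmga1 came at rank 16 (0.436), nearer than Lin28a at rank 55. For Trim71 they were Pramel1, Ott, Asz1, Zbtb16 and Morc1, at 0.169 to 0.316, of which Zbtb16 is in the list of undifferentiated spermatogonia markers used above. Hmga1 came at rank 18 and Igf2bp1 at rank 30 for Trim71. For Hmga2 they were Tmem82, Cfap161, Tmem121, Acot4 and Adgrb1, at 0.232 to 0.327, and each of these was highest in sKO-4.

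The promoters of Lin28a, Lin28b and Trim71, 3 of the 5 lower members, are shown from 250 bases before to 50 bases after the start in RefSeq (GRCm38.p6). Of the other lower members, Hmga1 is not shown, and no promoter entry was available for Igf2bp1. Capitals mark 4 promoter motifs sought on either strand: the TATA box as TATAAA, the NF-Y box as CCAAT, the GC box as GGGCGG and the E-box as CACGTG.
Lin28a (chr4:134018767-134019066, minus strand): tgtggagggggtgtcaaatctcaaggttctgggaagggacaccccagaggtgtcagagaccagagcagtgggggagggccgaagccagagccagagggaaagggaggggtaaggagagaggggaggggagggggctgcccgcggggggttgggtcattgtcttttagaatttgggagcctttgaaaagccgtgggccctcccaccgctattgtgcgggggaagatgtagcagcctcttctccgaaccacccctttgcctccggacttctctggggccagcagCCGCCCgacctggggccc
Lin28b (chr10:45470152-45470451, minus strand): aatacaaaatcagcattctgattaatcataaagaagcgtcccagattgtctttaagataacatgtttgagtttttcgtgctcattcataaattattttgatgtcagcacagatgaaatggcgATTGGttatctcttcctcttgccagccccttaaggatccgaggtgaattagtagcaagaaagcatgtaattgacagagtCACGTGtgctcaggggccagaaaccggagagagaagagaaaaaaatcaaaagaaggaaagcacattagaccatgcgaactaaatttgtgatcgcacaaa
Trim71 (chr9:114564320-114564619, minus strand): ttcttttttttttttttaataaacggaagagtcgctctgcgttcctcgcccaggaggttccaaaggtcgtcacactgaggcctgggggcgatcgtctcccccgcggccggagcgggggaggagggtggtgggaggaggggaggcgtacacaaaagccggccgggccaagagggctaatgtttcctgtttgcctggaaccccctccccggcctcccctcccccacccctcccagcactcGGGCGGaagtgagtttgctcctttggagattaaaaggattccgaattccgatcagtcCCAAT
No motif was present in all 3 windows. Lin28a held 1 GGGCGG, Lin28b held 1 CCAAT and 1 CACGTG, and Trim71 held 1 CCAAT and 1 GGGCGG. Over 27025 genes, TATAAA was in 14.2% of such windows, CCAAT in 37.9%, GGGCGG in 35.9% and CACGTG in 7.2%. Base composition also differed, since Lin28a had 63.3% G and C with 10 CG dinucleotides, Lin28b had 39.0% with 8, and Trim71 had 59.3% with 19, against a median of 7 over all windows. A match is a description of letters and not of binding.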

How the data were processed

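Per the labels' protocols, messenger RNA was captured from total testis RNA on oligo(dT) beads. A single table was deposited, of expected counts that need not be whole, for 57170 identifiers in 6 libraries. The submitters' processing notes name fastp, STAR, RSEM and mm39; the sources used here give no versions, roles, annotation or strand use. Reads that fit several genes are shared out by RSEM. Of the identifiers, 444 have no Ensembl form, and GENCODE M21 (GRCm38) gave symbols to 51742 (90.5%, 99.2% of counts). GRCm38 differs from the build of the counts, so it served for names, lengths and sequences only.

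Libraries were grouped by title, 4 sKO and 2 WT. The design text gives 3 replicates per group, which differs from the labels, and the labels were used. Between libraries of 1 group the chi-square per gene was 4.08 to 24.7, where sampling noise gives about 1, so none were pooled. Members and gene lists were chosen with earlier results of these data known. Counts were rounded, filtered with filterByExpr (minimum count 10), scaled by TMM and tested with edgeR 4.0.16 in R 4.3.3 (quasi-likelihood, two-sided, all 6 libraries, no covariate, Benjamini-Hochberg threshold 0.05). Log2 CPM carry a prior count of 2. SE is the log2 fold change divided by the root of F. The fit was tested on simulated data. Pathway genes were named by a rule: up to 4 per list with the smallest adjusted p under 0.05, or else the 2 most abundant. Likeness took 5 genes of at least 1 CPM per member. Alternatives were DESeq2 1.42.0, RLE size factors, Sertoli marker library sizes, no filter, at least 1 CPM in 4 libraries, the replicate block, the library subset as a term, and leaving out each library. With 1 WT library left, it was assumed to vary like sKO. Limits from a count of 0 cover counting error only.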

Additional observations from a re-analysis of the deposited data

Results flagged for a closer look

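In 33 sets of 4 sKO values, covering the members, their ratios to germ cell markers, the named pathway genes and Mdm2, 2 had a library whose gap to its nearest neighbour was above Dixon's 95% critical value. About 1 in 20 such sets would pass without any real outlier. Hmga2 was at 1.444 CPM in sKO-4, with a gap of 0.868 of the range. Mbnl1 was at 253.2 CPM in sKO-2, with a gap of 0.904 of the range.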

How the results depend on the processing

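Over all genes, 408 were lower and 22 higher. These counts became 661 and 12 with Sertoli marker library sizes, 1531 and 880 with the library subset as a term, and 685 and 112 with DESeq2. With the replicate block, which uses the number in the titles, they were 648 and 216. The deviations of same-numbered libraries from their group means correlated at 0.42 for sKO-1 with WT-1 and at −0.44 for sKO-2 with WT-2. With 2 WT libraries, the deviations of WT-1 and WT-2 are exact opposites, so these values cannot show whether same-numbered libraries were paired. Leaving out 1 library gave 1 to 225 genes lower and 2 to 7 higher, with the lowest counts without WT-1. Of the pathway genes, 4 were lower and 0 higher. This became 2 lower with RLE size factors, 7 lower and 1 higher with the replicate block, and 15 lower and 4 higher with the library subset as a term. DESeq2 called 1 higher, and leaving out 1 library gave 0 to 2 lower and 0 higher. The cause of these changes was not tested. Of the members' log2 fold changes, 145 of the alternative values moved by less than the spread between replicates and 4 moved by more. Lin28a ranged from −2.56 to −2.09, Lin28b from −2.22 to −1.89, Trim71 from −2.43 to −1.83, Hmga1 from −2.16 to −1.90 and Igf2bp1 from −1.99 to −1.47 over all alternatives, each library subset alone included. Hmga2 could not be tested with at least 1 CPM in 4 libraries. At 11.01 to 25.2 counts per library, depth limits Hmga2 the most.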
